A study of Rattus norvegicus with 3 samples.

Results

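The genes described here are those of the cellular oxygen-sensing pathway: the HIF alpha subunits Hif1a, Epas1 (Hif-2α) and Hif3a, the beta subunit Arnt, the prolyl hydroxylases Egln2 and Egln3, the asparaginyl hydroxylase Hif1an, the ubiquitin ligase subunit Vhl, and erythropoietin (Epo) with its receptor (Epor). They were found by name, through the transcript accession of each array probe, and all 10 listed genes were matched among the 26785 genes of the array. Each was represented by exactly 1 probe, spotted 1 time on each array. Kidney RNA was compared between male Sprague-Dawley rats that drank water with 200 ppm γ-aminobutyric acid (GABA) for 3 weeks (the G200 group) and untreated rats of the same strain and sex, which served as the control. Both groups entered the study at 5 weeks of age, were kept on the same standard diet, and are labelled as kidney from a non-tumor region. The labels give 3 rats per group. On each of 3 Agilent arrays the control RNA carried Cy3 (green) and the G200 RNA carried Cy5 (red), so a positive log2 ratio stands for more signal in G200.

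HIF alpha subunits pair with Arnt and switch on genes for glycolysis, iron handling, blood vessel growth and red cell formation when oxygen is low. With oxygen present, prolyl hydroxylases mark the alpha subunits for recognition by Vhl and destruction, and Hif1an blocks their contact with coactivators. In the kidney, Epo is made by interstitial fibroblasts under the control of Epas1, and it acts through Epor on red cell precursors.

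Some properties of the arrays bear on every value below. All 3 arrays lay on 1 slide and were read in 1 scan, and the dyes were exchanged on 0 of them, so a dye effect and the effect of GABA cannot be told apart. Of the 42877 non-control spots on an array, 59.8% to 62.7% were well above background in green and 56.6% to 63.0% in red, and the number of arrays limits the precision. By probes with many spots, the 3 control channels resembled repeats of a single RNA. For probes with 5 or more spots, the variance between the means of 2 arrays was multiplied by the number of spots. It was then divided by the variance among replicate spots. Over 1111 probes in green, this ratio had a median of 0.128 to 0.351 across the pairs of arrays. An F test with Benjamini-Hochberg adjustment found 3 green probes that differed between arrays. In red the median ratio was 2.03 to 3.88, and 570 of 1087 probes differed. Some probes with 1 spot varied more, among them Vhl, whose normalized log2 control levels were 8.95, 9.57 and 9.52. Its G200 levels of 9.20, 9.72 and 9.61 were also lowest in replicate 1, so this spread cannot be assigned to the control RNA. Whether the control was 1 RNA is not settled. It was counted as 1 sample, and differences among control rats do not enter the limma test, which sets the 3 log2 ratios against 0. The tissue label was checked against 20 marker genes of kidney epithelium, 18 of which were well above background in both colours on all 3 arrays. This check cannot show whether RNA of other tissue was present. Liver markers, taken up below, had a summed normalized intensity of 128772, 156221 and 168986 in the control and 35978, 12729 and 4637 in G200.

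A gene entered the test when at least 1 of the colours, the same one throughout, carried the scanner software's mark for signal well above background on all 3 arrays. By this rule 6 of the 10 genes were tested, and over the array 51.5% of 30367 probes passed it. Hif1a, Arnt, Hif1an and Epo were not. Of the 6 tested, 1 gene (Epas1, lower in G200) passed an adjusted p of 0.05, against 37.5% of the 14183 genes tested on the whole array (11.5% higher and 25.9% lower). Counts over the whole array fell, by unequal amounts, when 1 replicate was left out. A fit with fewer arrays also has less power, so the fall is not due to the missing replicate alone. The count was highest without replicate 2. With all 3 arrays 5316 genes passed, whereas 1612 passed in a fit without replicate 3 and 3526 in one without replicate 1. The median log2 ratio of the 6 genes was -0.07, and that of all genes tested was -0.05. Hif3a and Epor passed the detection rule through the control channel alone, so the 6 genes are no neutral sample of the list. Over the array, 1.94% of probes were marked in green on all arrays and in red on none, and 0.333% the reverse. Neither the count over these 6 nor any test result given below for Hif3a or Epor is read as a difference. Scaling moved the ratios, by amounts that differed between genes. Relative to loess, the median of all genes shifted by 0.32 with median centring of each array and by 0.67 with no normalization between the dyes, and the share of called genes that were higher in G200 went from 30.8% to 80.0% and 96.3%.

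**Figure D1:**
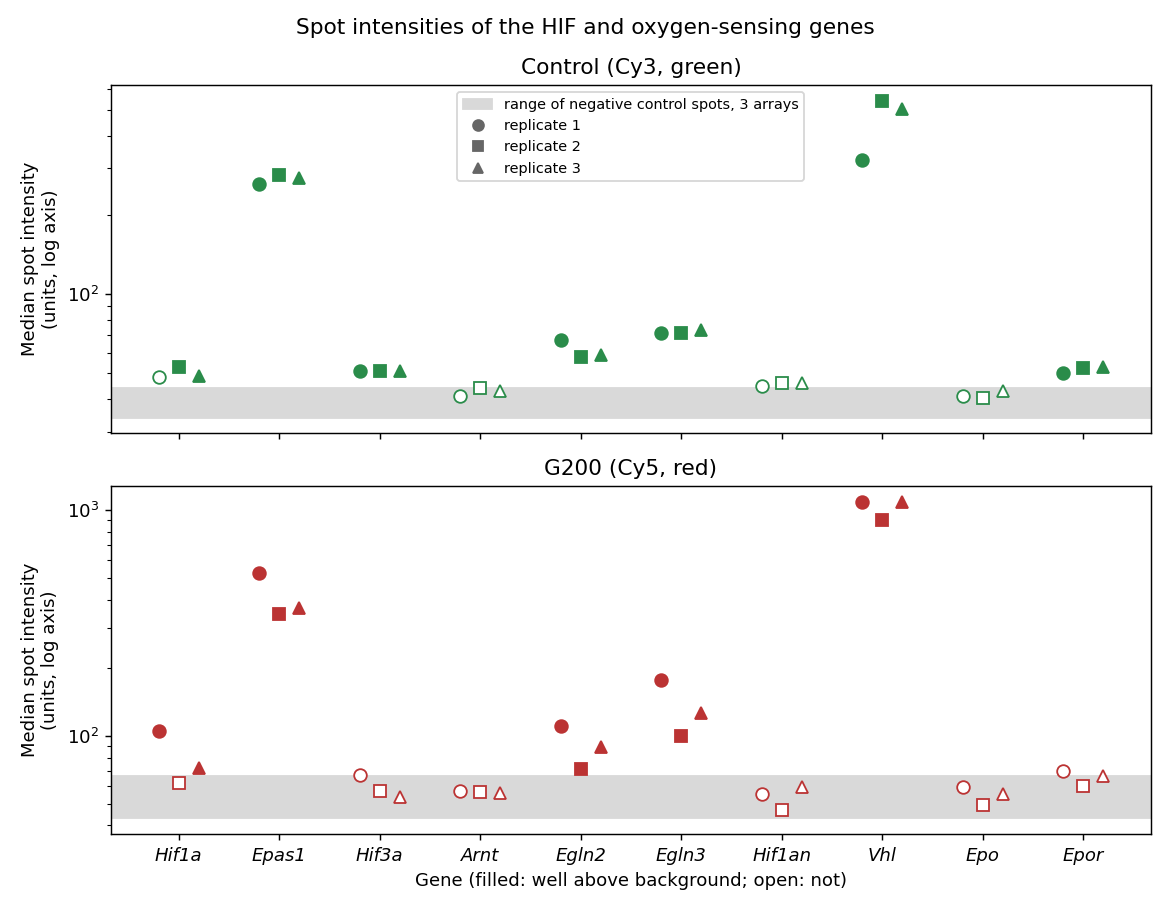
Median spot intensity of each gene's probe (vertical axis, intensity units on a log scale) in the control channel (upper panel) and the G200 channel (lower panel) of replicates 1, 2 and 3; filled symbols were well above background, open symbols were not, and the grey band spans the negative control spots of the 3 arrays. Epas1, Egln2, Egln3 and Vhl are filled on every array in both colours, while Epo, Arnt and Hif1an are open throughout.

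Among the HIF alpha subunits, Epas1 was measured in both groups on every array. Its normalized log2 level was 8.64, 8.66 and 8.64 in the control channels and 8.21, 8.40 and 8.11 in the G200 channels of replicates 1, 2 and 3. The levels of the groups did not overlap, but the control values are counted as repeats of 1 RNA and do not show how control rats vary. The log2 ratios were -0.42, -0.26 and -0.53, with a mean of -0.41 ± 0.14 (SD, n = 3) and a 95% interval of -0.59 to -0.22 (limma, adjusted p = 0.0107). This fall, 1.33-fold, turned with the scaling: the mean was 0.17 with median centring (adjusted p = 0.336) and 0.52 with no normalization between the dyes (adjusted p = 0.063). Set against the median of all genes, Epas1 lay lower by each scaling, at -0.36 with loess and -0.10 with either of the others. Without replicate 3 the adjusted p was 0.0949.

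Epas1 is abundant in endothelium, the cell layer that lines blood vessels, and endothelial markers are given beside it. Of 4 such markers 3 were tested, of which Pecam1 fell (mean log2 ratio -0.56, adjusted p = 0.00235) with loess but stood at 0.14 with median centring and at 0.49 with no dye normalization. Cdh5 had a mean of -0.24 (adjusted p = 0.0516), or -0.12 with median centring and 0.23 with no dye normalization. It passed as lower in 4 of 14 alternatives, among them without replicate 2 (-0.31, adjusted p = 0.04) and with a normexp offset of 0 (-0.49, adjusted p = 0.0387). Kdr had a mean of 0.04 (adjusted p = 0.814), or -0.12 without replicate 1, and passed as higher at 0.77 with median centring (adjusted p = 0.0371) and at 1.13 with no dye normalization (adjusted p = 0.0103). Tek was not well above background on any array. The summed normalized intensity of the 3 tested markers, of which Kdr was the brightest, was 3798, 3378 and 3463 in the control and 3831, 2899 and 2761 in G200. The part of these markers in the Epas1 result was not tested, and in whole kidney RNA fewer cells of a type and less RNA per cell cannot be told apart.

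Hif1a, the subunit most widely induced by low oxygen, lay at the edge of detection. Its spot read 48.5, 53 and 49 intensity units in the control, where replicates 2 and 3 were well above background, and 105, 62 and 72 in G200, where replicates 1 and 3 were. Only replicate 3 was measured in both colours. The log2 ratios of 0.24, -0.21 and 0.10 went in both directions, with a mean of 0.04 ± 0.23 (SD, n = 3), and no test was made. The mean was 0.36 with no dye normalization, 0.75 with the log ratio deposited from Feature Extraction and -0.05 without replicate 1.

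Hif3a, whose splice forms include inhibitors of the other alpha subunits, gave a spot of 51 units in each of the 3 control channels, well above background every time. In G200 it read 67, 57 and 53.5 units beside a local background of 56, 47 and 52. It was well above background there on 0 of the 3 arrays, and 0, 5 and 29 of the 153 negative control spots were at least as bright. The log2 ratios of -0.13, -0.08 and -0.28, with a mean of -0.16 ± 0.10 (SD, n = 3), are a description only, and no fold or direction is given because G200 was not well above background. The mean was -0.34 with median centring and 0.01 with no dye normalization. It was -1.70 with the deposited log ratio and -0.68 with a normexp offset of 0 (limma, adjusted p = 0.0109 and 0.0435). No fall is read from these 2 values either, because no G200 spot was well above background.

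The beta subunit Arnt, the shared partner of the alpha subunits, was not well above background in either colour on any array. Its spot read 41, 44 and 43 units in the control and 57, 56.5 and 55.5 in G200. Of the 153 negative control spots on each array, 27, 1 and 5 were at least as bright in green and 11, 6 and 10 in red. No fold is given for a probe that is dim in both groups. Arnt2, a related beta subunit from the list of other HIF regulators, had 2 probes that went opposite ways: the brighter rose by a mean log2 ratio of 0.27 (adjusted p = 0.0409) and the other gave -0.22 (adjusted p = 0.0511 over all probes). The rise of the brighter was lost without any 1 of the replicates, with an adjusted p of 0.174, 0.0751 and 0.116 without replicates 1, 2 and 3.

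The prolyl hydroxylases were detected in both groups on all arrays. Egln3, itself a gene induced by HIF, had control levels of 6.74, 6.71 and 6.82 and G200 levels of 6.99, 6.87 and 6.82. G200 was above its own control on each array, by 0.25, 0.16 and 0.002 log2 units. The mean of 0.14 ± 0.12 (SD, n = 3; 95% interval -0.05 to 0.32) did not pass (limma, adjusted p = 0.193), although it did at 0.71 with no dye normalization (adjusted p = 0.0219). Egln2 had control levels of 6.62, 6.39 and 6.42 and G200 levels of 6.53, 6.28 and 6.47, which overlapped. Its mean ratio of -0.05 ± 0.09 (SD, n = 3; 95% interval -0.21 to 0.12; adjusted p = 0.627) turned to 0.01 with median centring, 0.36 with no dye normalization and 0.11 with the deposited log ratio. Egln1, the hydroxylase regarded as the main oxygen sensor, was matched to 0 probes and was not analysed here.

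Hif1an, which hydroxylates an asparagine of the alpha subunits, was not well above background in either colour. Its control spots of 45, 46 and 46 units were brighter than every negative control spot of their arrays. In G200 it read 55, 47 and 59 units, and 42, 149 and 0 of the 153 negative control spots were at least as bright. The probe thus lay above the negative controls in green and among them in red on 2 of the 3 arrays.

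Vhl, the substrate-recognition subunit of the ligase, was bright in both groups. Its spot read 322, 542 and 502.5 units in the control and 1085, 899 and 1087.5 in G200. The normalized control levels were 8.95, 9.57 and 9.52 and the G200 levels 9.20, 9.72 and 9.61. Replicate 1 was the lowest in both channels, so the levels of the groups overlapped while each G200 value lay above its own control. The log2 ratios were 0.25, 0.15 and 0.09, with a mean of 0.16 ± 0.08 (SD, n = 3), a 95% interval of -0.003 to 0.33 and an adjusted p of 0.107 in limma's test. The adjusted p was 0.567 when the channels were fitted without the array as a block. Vhl passed as higher with median centring (0.81, adjusted p = 0.0182) and with no dye normalization (1.16, adjusted p = 0.00662). Relative to the median of all genes it lay 0.21 above with loess and 0.54 above with either of these. Of the 4 proteins listed as partners of Vhl in its ligase, 3 were tested and 1 passed, as higher. Of all genes 37.5% passed, 11.5% as higher. Rbx1, the RING subunit, rose (log2 ratios of 0.59, 0.34 and 0.48, adjusted p = 0.00638), although its adjusted p was 0.0605 without replicate 3. The other 2 tested, Elob and Eloc, did not pass with loess. All 3 passed as higher by either of the other scalings, as did 4990 of all 14183 genes with median centring and 8010 with no dye normalization.

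**Figure D2:**
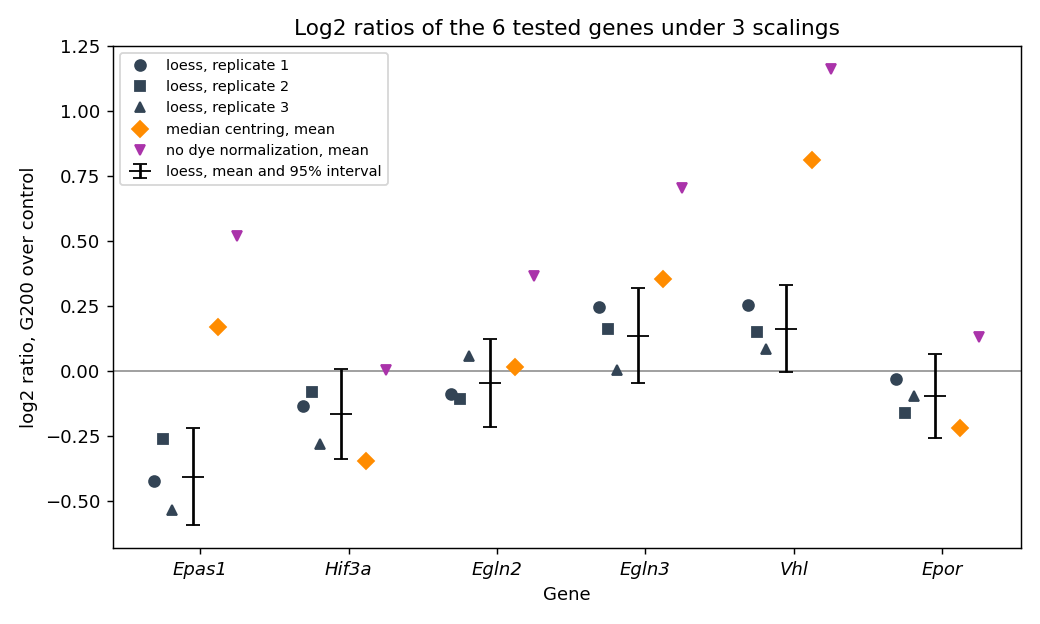
Log2 ratio of G200 over control (vertical axis) for the 6 tested genes, of which Hif3a and Epor were not well above background in G200: symbols are replicates 1, 2 and 3 after loess, bars are their mean with a 95% interval, and diamonds and inverted triangles are the means with median centring and with no dye normalization. The interval of Epas1 lies below 0 after loess, while its means by the other scalings, 0.17 and 0.52, lie above 0.

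Epo was at background in both groups. Its spot read 41, 40.5 and 43 units in the control beside a local background of 25, 26 and 25.5, and 59, 49.5 and 55 units in G200 beside 56, 46 and 52. In green, 27, 50 and 5 of the 153 negative control spots were at least as bright, and in red 3, 120 and 16 were. The probe was well above background on 0 of 3 arrays in either colour, and the log ratio deposited for it was listed at 0 on all 3. A difference in Epo between the groups was therefore not detectable on these arrays, and no fold is given.

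Epor, the receptor of erythropoietin, carried the same detection marks as Hif3a. The control spots of 50, 52.5 and 53 units were well above background on all 3 arrays. The G200 spots of 70, 60 and 66 units were so on 0 of 3. In red, however, only 0, 2 and 0 of the 153 negative control spots were at least as bright as the Epor spot. Its log2 ratios of -0.03, -0.16 and -0.09, with a mean of -0.10 ± 0.07 (SD, n = 3), are likewise a description, with no fold or direction. The mean was -0.22 with median centring, 0.13 with no dye normalization and -0.33 with a normexp offset of 0. It was -0.66 with the deposited log ratio (limma, adjusted p = 0.014). No fall is read from this value either, because no G200 spot was well above background.

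Promoters of 3 of these genes are printed to show where the core DNA motif bound by HIF occurs. They were chosen after the match counts were seen, with Hif1a and Epo taking the place of Egln3 and Vhl, which hold 0 matches each: Hif1a because it holds the most matches among the 10 genes, Epas1 because it was the gene past the threshold, and Epo because it is the classic product of the pathway. They are RefSeq sequences of the rat assembly GRCr8, 300 bases each, 5′ to 3′ along the gene. Hif1a lies at chr6:98359648-98359947 on the plus strand, Epas1 at chr6:13624680-13624979 on the minus strand and Epo at chr12:24841035-24841334 on the plus strand. Capitals mark ACGTG or GCGTG on either strand, and these motifs overlap the E-box CACGTG.
Hif1a: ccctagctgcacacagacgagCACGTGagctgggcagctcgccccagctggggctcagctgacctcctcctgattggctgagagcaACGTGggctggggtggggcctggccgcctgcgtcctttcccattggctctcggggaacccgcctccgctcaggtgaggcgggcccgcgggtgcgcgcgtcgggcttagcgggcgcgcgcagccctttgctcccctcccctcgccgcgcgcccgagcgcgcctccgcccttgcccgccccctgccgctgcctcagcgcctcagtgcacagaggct
Epas1: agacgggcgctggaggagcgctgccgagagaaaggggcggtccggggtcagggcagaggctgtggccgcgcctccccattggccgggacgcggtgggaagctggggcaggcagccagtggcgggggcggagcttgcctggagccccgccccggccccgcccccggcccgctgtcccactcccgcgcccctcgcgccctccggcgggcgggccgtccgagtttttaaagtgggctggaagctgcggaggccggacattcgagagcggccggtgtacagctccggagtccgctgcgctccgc
Epo: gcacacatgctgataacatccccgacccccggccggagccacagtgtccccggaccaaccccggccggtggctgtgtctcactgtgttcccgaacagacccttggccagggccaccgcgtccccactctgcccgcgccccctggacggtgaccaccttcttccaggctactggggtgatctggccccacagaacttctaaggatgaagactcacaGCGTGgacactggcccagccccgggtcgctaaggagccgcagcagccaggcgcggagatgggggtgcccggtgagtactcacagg

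The Hif1a window held 3 matches, 2 of them from the palindrome CACGTG, which matches on both strands, and the Epo window held 1. Hif3a had windows with 2 and 0 matches, Arnt had 1 match, and Epas1, Egln2, Egln3, Hif1an, Vhl and Epor had 0. Over the 10 genes, 4 of 11 promoter windows had a match (36.4%), against 41.6% of 33469 windows of all genes and 69.8% of 53 windows of the HIF target list. A match is a description of the letters only.

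HIF target genes, the readout of the pathway, were taken from a list of 56 genes, of which 43 were tested. Of these, 6 rose and 5 fell, 25.6% in all, against 37.5% of all genes. Their median log2 ratio with loess was -0.03, close to the -0.05 of all genes. It was 0.51 against 0.27 with median centring, and 0.86 against 0.62 with no dye normalization. The rises were led by Ndrg1, a stress-response gene (mean 0.71, adjusted p = 0.0126), and by Pfkp, a phosphofructokinase of glycolysis (0.48, adjusted p = 0.00427). The chemokine Cxcl12 (0.43, adjusted p = 0.0306) and the glycolytic mutase Pgam1 (0.38, adjusted p = 0.0146) followed, each higher on 3 of 3 arrays. These rises kept their sign by each scaling, but 0 of the 6 passed in limma's test without replicate 3. There 5 targets passed, 0 higher and 5 lower, where 1612 of all 14183 genes passed, 183 higher and 1429 lower. An unadjusted p below 0.05 was found for 12 targets and for 4572 of all genes. Cxcl12 also did not pass without replicate 1 (adjusted p = 0.0838), and a second probe of it gave 0.31 (adjusted p = 0.0502 over all probes). Ldha rose (0.34, adjusted p = 0.0219) but had an adjusted p of 0.0792, 0.0608 and 0.068 without replicates 1, 2 and 3, whereas the glucose transporter Slc2a1 did not pass (0.10, adjusted p = 0.318) except as higher with median centring (0.75, adjusted p = 0.0199) and with no dye normalization (1.10, adjusted p = 0.00716). Over the list, 22 genes passed with median centring, 20 of them higher, where 6236 of all 14183 genes passed, 4990 of them higher. With no dye normalization 31 passed, 29 of them higher, where 8314 of all genes passed, 8010 of them higher.

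Vegfa, the vascular growth factor and a classic HIF target, passed as lower in G200 with loess and did not pass with median centring or with no dye normalization. Its brightest probe had control levels of 11.53, 11.45 and 11.40 and G200 levels of 10.77, 10.96 and 10.24, which did not overlap. The log2 ratios of -0.76, -0.49 and -1.16 gave a mean of -0.81 (95% interval -1.12 to -0.50, limma, adjusted p = 0.00597). Of its 4 probes, all had negative ratios on each array with loess, with means of -0.81, -0.63, -0.54 and -0.14, and the last did not pass over all probes (adjusted p = 0.202). With median centring the mean of the brightest was -0.07 (adjusted p = 0.765), and with no dye normalization it was 0.28 (adjusted p = 0.294), while relative to the median of all genes it was -0.76 with loess and -0.34 with either of these. The growth factor Tgfa fell by 0.46 (adjusted p = 0.00531) and the adenylate kinase Ak4 by 0.41 (adjusted p = 0.0261). With no dye normalization their log2 ratios were 0.21 (adjusted p = 0.372) and 0.48 (adjusted p = 0.0689), and with median centring -0.14 (adjusted p = 0.371) and 0.13 (adjusted p = 0.435). Ak4 had an adjusted p of 0.0678, 0.0653 and 0.061 without replicates 1, 2 and 3.

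**Figure D3:**
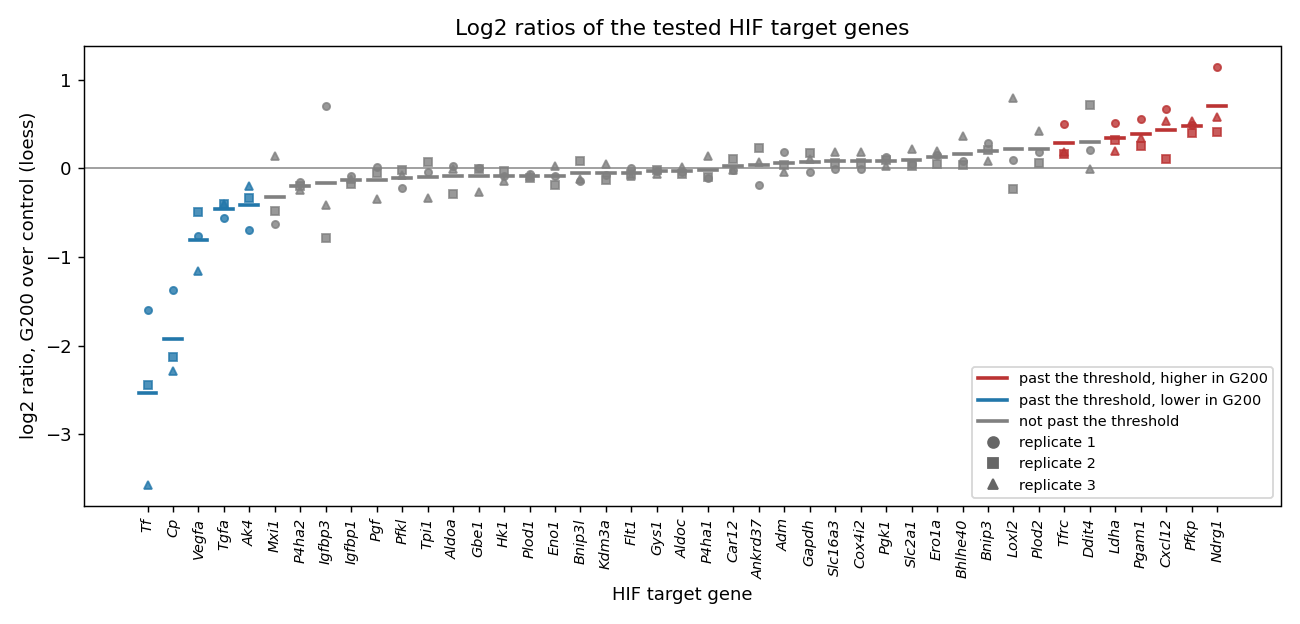
Log2 ratio of G200 over control after loess (vertical axis) for the 43 tested HIF target genes, ordered by mean; symbols are replicates 1, 2 and 3, horizontal bars are means, and colour gives the result of the limma test. Most genes lie near 0, Tf and Cp lie at means of -2.53 and -1.93, and the highest mean is 0.71 for Ndrg1.

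The largest falls on the target list were those of Tf (transferrin) and Cp (ceruloplasmin), which carry iron and copper in plasma. Tf had log2 ratios of -1.60, -2.44 and -3.57 (mean -2.53, adjusted p = 0.00346), and Cp of -1.37, -2.13 and -2.28 (mean -1.93, adjusted p = 0.00121). A second probe of Cp, matched to another transcript, gave 0.35, -0.13 and 0.39. Both genes are highly expressed in liver, and the liver markers moved with them. All 14 tested liver markers of 15 listed fell, with a median log2 ratio of -2.92, and Tat was not well above background on any array. All 14 stayed negative with median centring and with no dye normalization, where 11 passed by either and the medians were -2.20 and -1.85, and 10 passed without replicate 2. The summed normalized intensity of the 14 was 128772, 156221 and 168986 in the control and 35978, 12729 and 4637 in G200, and Ttr had the highest mean, though Alb was brighter in the control of replicates 2 and 3. In replicates 1, 2 and 3 the list's median was -1.52, -3.03 and -4.25, and Tf and Cp too were lowest in replicate 3. Their part in the Tf and Cp results was not tested. Without Tf and Cp, a count added after the data were seen, 9 of 41 targets passed (22.0%), 6 higher and 3 lower. Of all genes 37.5% passed, 11.5% higher and 25.9% lower.

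**Figure D4:**
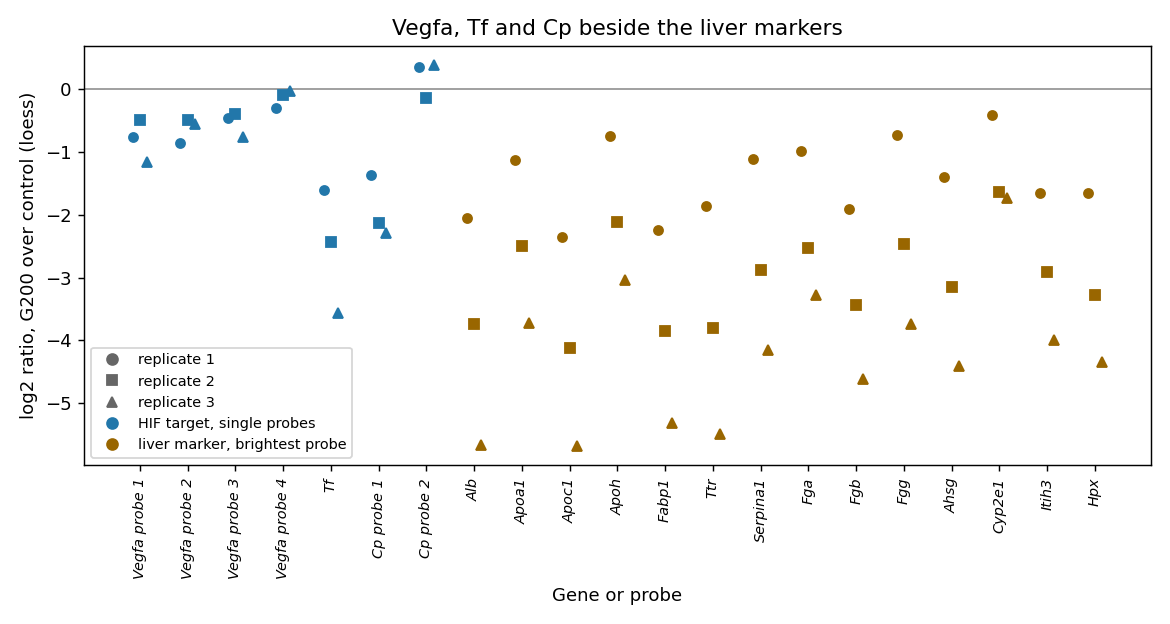
Log2 ratio of G200 over control after loess (vertical axis) on replicates 1, 2 and 3 for single probes of Vegfa, Tf and Cp and for the brightest probe of each tested liver marker. The median of the liver markers, at -4.25, and Tf, at -3.57, are lowest in replicate 3, and the second Cp probe lies near 0.

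Of 16 other HIF regulators, 9 were tested and 3 passed (33.3%, against 37.5% of all genes). Besides Arnt2, Usp20 (a deubiquitinase, mean -0.63, adjusted p = 0.00798) and Os9 (a lectin of the endoplasmic reticulum, -0.35, adjusted p = 0.0135) passed, both lower with loess. Neither passed with median centring (-0.16, adjusted p = 0.264, and -0.21, adjusted p = 0.169) or with no dye normalization (0.19 and 0.14). Without replicate 3 their adjusted p values were 0.0626 and 0.067. Rack1 had log2 ratios of 1.16, 0.09 and 0.43 and did not pass (adjusted p = 0.0629), but passed as higher without replicate 2 (0.79, adjusted p = 0.0375), with median centring (1.17, adjusted p = 0.0318) and with no dye normalization (1.52, adjusted p = 0.00816). Without replicate 1 the mean of Rack1 was 0.26 and did not pass.

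Transcription factors known to act on the Epo gene were next considered. Of 7 listed, 6 were tested and 3 fell, against 25.9% lower among all genes, at a list median of -0.22 with loess, 0.11 with median centring and 0.46 with no dye normalization. Nr2f6 (-0.49, adjusted p = 0.00511), Nr2f2 (-0.41, adjusted p = 0.0139) and Hnf4a (-0.32, adjusted p = 0.0129) were lower on 3 of 3 arrays with loess. With no dye normalization their means were 0.56, 0.63 and 0.15, and with median centring 0.21, 0.28 and -0.20, and a second probe of Nr2f6 gave -0.07 (adjusted p = 0.417 over all probes). Nr2f2 passed as higher with no dye normalization (adjusted p = 0.03), and Hnf4a did not pass with median centring (adjusted p = 0.184). Relative to the median of all genes, Nr2f2 was -0.36 with loess and 0.006 with either of these. Without replicate 3, Nr2f2 and Hnf4a had an adjusted p of 0.107 and 0.11. The 14 tested liver markers fell on the same arrays, and their part in the Hnf4a result was not tested. Wt1 had a mean of 0.53 that rested mostly on replicate 1, at 1.16 (adjusted p = 0.0708). It passed as higher with no dye normalization (1.04, adjusted p = 0.0242), with the deposited log ratio (1.57, adjusted p = 0.0297) and with a normexp offset of 0 (1.16, adjusted p = 0.0473). The 4 tested podocyte markers had a median log2 ratio of 0.51, 0.05 and 0.17 on replicates 1, 2 and 3. Their part in the Wt1 result was not tested.

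The interstitial fibroblasts that make Epo were represented by 9 markers, of which 8 were tested. Of these 2 rose and 1 fell with loess (37.5%, as among all genes), while 7 passed as higher by either of the other scalings, as did 4990 of all 14183 genes with median centring and 8010 with no dye normalization. Dcn rose, with log2 ratios of 1.12, 0.70 and 1.44 (mean 1.09, adjusted p = 0.00307), as did Pdgfra (0.45, adjusted p = 0.00862), and both were higher by each scaling. Cspg4 fell (-0.32, adjusted p = 0.0191), or stood at 0.16 with median centring and 0.51 with no dye normalization. Without replicate 3, Pdgfra and Cspg4 had an adjusted p of 0.0761 and 0.0854, and Cspg4 had 0.0758 without replicate 1. The summed intensity of the 8 markers, of which Col3a1 was the brightest, was 7186, 6912 and 6818 in the control and 7599.7, 6486 and 8980.2 in G200, which overlapped.

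Downstream of Epor, 14 of 26 listed signalling genes were tested and 3 fell (21.4%, against 25.9% lower among all genes), at a list median of -0.08. These were the adaptor Grb2 (mean -0.49, adjusted p = 0.00939), the survival gene Bcl2l1 (-0.36, adjusted p = 0.0298) and the insulin receptor substrate Irs2 (-0.31, adjusted p = 0.0223). A second probe of Grb2 gave -0.04, and 2 further detected probes of Bcl2l1 gave -0.29 and -0.17, none past the threshold over all probes. The means of the 3 genes were 0.17, 0.37 and 0.01 with median centring and 0.52, 0.72 and 0.36 with no dye normalization. With no dye normalization Bcl2l1 passed as higher (adjusted p = 0.0198). Relative to the median of all genes, it was -0.31 with loess and 0.10 with either of these. Over the list the median was 0.17 with median centring and 0.52 with no dye normalization. By these scalings 4 and 6 of the listed genes passed, each as higher, as did 4990 and 8010 of all 14183 genes. On the list, 0 genes passed limma's test without replicate 3, and 3 had an unadjusted p below 0.05. Of all 14183 genes, 1612 passed there and 4572 had an unadjusted p below 0.05. Bcl2l1 also did not pass without replicate 1 (adjusted p = 0.0976) or 2 (adjusted p = 0.0722), nor Irs2 without replicate 2 (adjusted p = 0.0701). Among 4 red cell markers, 1 fell, against 25.9% lower among all genes (Slc4a1, which intercalated cells of the collecting duct also express, mean -0.68, adjusted p = 0.00348, or -0.01 with median centring and 0.34 with no dye normalization, neither past the threshold), and the median log2 ratio of the 4 was 0.01, -0.20 and -1.10 on replicates 1, 2 and 3. Over the arrays that median was -0.50 with loess, 0.27 with median centring and 0.62 with no dye normalization.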

How the data were processed

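Agilent Feature Extraction output was used, 1 table per array, in which the authors deposited, per colour, an uncorrected median intensity for every spot and its surroundings, and a log10 ratio of red over green. Per the labels this was version 9.3.2.1, and per the file headers 11.5.1.1. Detection marks were taken from the same tables. Spot medians were background corrected with limma 3.58.1 in R 4.3.3 (normexp, offset 50) and normalized by loess within arrays. Control spots and spots with an outlier mark (635, 736 and 945 on replicates 1, 2 and 3) were dropped, and replicate spots were averaged. Accessions of 18355 of 30367 probes (60.4%) matched a symbol in the RefSeq table of GRCr8. Probes without a symbol were counted as genes by their accession, so several entries may belong to a single gene. Of the 14183 genes tested, 8912 had a symbol. The array was designed on an older build, so gene coordinates other than those of the promoter table are not given. Of 15651 probes that passed detection, the brightest stood for each gene. The mean ratio was set against 0 in a two-sided moderated test (limma, lmFit then eBayes), and p values of the 14183 genes were adjusted together by the Benjamini-Hochberg method. Levels per channel were brought to a common scale by Aquantile. Control and G200 share an array, which is the block of the ratio, as the labels pair them. Alternatives covered normalization, background, filter, probe choice, variance model, block, test and each replicate. Named genes are the 10 of the pathway and, for each other list, those past the threshold with 1 sign on all arrays, up to 4 rises and 4 falls; Ak4, Ldha, Slc2a1, Wt1, Pecam1, Kdr, Cdh5, Rack1 and Slc4a1 were named after their values were seen. Members and lists were chosen with earlier results of these data known. The steps were tested on simulated data. Marker lists of macrophages and lymphocytes had 0 of 4 and 0 of 1 tested genes past the threshold, and kidney epithelium 6 of 19. Of all genes 37.5% passed. In limma, 1 macrophage and 1 lymphocyte marker had an unadjusted p below 0.05, as had 6964 of all 14183 genes.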

Additional observations from a re-analysis of the deposited data

How the results depend on the processing

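With no normalization between the dyes, 8314 of all genes (5316 as reported) and 9040 probes (5706) passed, as did 2 of the HIF and oxygen-sensing genes (1), 31 HIF targets (11) and 6 genes of Epo receptor signalling (3). Median centring gave 22 HIF targets. For the HIF and oxygen-sensing genes, the deposited log ratio gave 3 (Epas1, Hif3a and Epor), where 5326 of all 14183 genes passed. A normexp offset of 0 gave 2 (Epas1 and Hif3a), where 4979 of all genes passed. Of these, Hif3a and Epor had no G200 signal well above background and are not read as a difference. Without the array as a replicate block, 4093 genes passed, and 1 of Epo receptor signalling.

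A one-sample test on the 3 log ratios, without limma's shared variance and with Benjamini-Hochberg adjustment, gave 2 genes, 2 probes, 0 HIF and oxygen-sensing genes, 0 HIF targets and 0 of Epo receptor signalling, against 4475 of all 14183 genes and 1, 8 and 4 of these lists at an unadjusted p below 0.05. The unequal-variance test between channels, which the study's methods name without an adjustment, gave after the same adjustment 337 genes, 323 probes and 0, 0 and 0 of the lists, against 4175 of all genes and 2, 7 and 2 of the lists unadjusted. Leaving out 1 replicate gave 1612 to 4972 genes, 1777 to 5382 probes, 0 to 1 HIF and oxygen-sensing genes, 5 to 8 HIF targets and 0 to 2 of Epo receptor signalling.

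Of the 37 named genes with sensitivity values, which leave out Arnt, Hif1an and Epo, 19 had a log2 ratio of the other sign with no dye normalization, among them Hif3a and Epor, for which no direction is read. These ratios were 0.52 for Epas1, 0.0055 for Hif3a, 0.36 for Egln2, 0.13 for Epor, 0.19 for Usp20, 0.14 for Os9, 0.56 for Nr2f6, 0.63 for Nr2f2, 0.15 for Hnf4a, 0.51 for Cspg4, 0.28 for Vegfa, 0.21 for Tgfa, 0.52 for Grb2, 0.72 for Bcl2l1, 0.36 for Irs2, 0.48 for Ak4, 0.49 for Pecam1, 0.23 for Cdh5 and 0.34 for Slc4a1. With median centring 10 did, at 0.17 for Epas1, 0.014 for Egln2, 0.21 for Nr2f6, 0.28 for Nr2f2, 0.16 for Cspg4, 0.17 for Grb2, 0.37 for Bcl2l1, 0.0056 for Irs2, 0.13 for Ak4 and 0.14 for Pecam1. Egln2 was 0.11 with the deposited log ratio, and Kdr ranged from -0.12 to 0.14 when 1 replicate was left out. The other filters, the mean over probes, the robust fit and the missing block turned no direction. The cause was not tested.

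Signal over background limits what can be said of Hif1a, Hif3a, Arnt, Hif1an, Epo and Epor, none of which was well above background in both colours on all 3 arrays. With 3 arrays, 1 dye orientation and a control counted as 1 sample, precision is low, and dye and treatment cannot be told apart.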
